A study of Mus musculus with 48 samples.

Results

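The 8 genes described here are Nlrp3, Pycard, Casp1, Casp4, Gsdmd, Casp8, Ripk3 and Mlkl, which carry the inflammasome, caspase and necroptosis pathways. They were chosen by name and their rows were read from a count table of 55357 genes. All 8 passed the filter on low counts, which left 21390 genes for testing.

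Inflammasomes are cytosolic complexes in which a sensor such as Nlrp3 binds the adaptor Pycard, also called ASC, and thereby activates Casp1, the protease that matures interleukin-1β and interleukin-18. Casp1 and Casp4, the mouse gene of caspase-11, also cut Gsdmd, whose released fragment opens pores in the plasma membrane, a form of death called pyroptosis. Casp8 starts apoptosis below death receptors and holds back necroptosis, in which the kinase Ripk3 phosphorylates Mlkl and Mlkl breaks the membrane. In the brain these pathways are best known from microglia, and they are switched on by cleavage, assembly and phosphorylation, none of which an RNA level shows.

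RNA was sequenced from the dorsal dentate gyrus of 24 wild-type C57BL/6J mice aged 6 to 8 weeks according to the series description, while the methods of the study give a slightly older range. Each mouse received kainate, a glutamate receptor agonist that induces status epilepticus (SE), or saline into 1 hippocampus, and was killed at 3 days, 7 days or 14 days. The injected side is called the epileptogenic zone (EZ) and the opposite side of the same mouse the peri-ictal zone (PIZ). Region, injection and day gave 12 groups of 4 libraries, each from 4 mice of both sexes and unpooled, and saline mice had the same injection without kainate.

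Library totals ran from 17762656 to 25712975 counts, with a median of 22108562.5, and every library held reads of the granule cell markers Prox1, Calb1, C1ql2, Dsp, Plk5 and Tdo2. The kainate mouse numbered 27 stood apart in the EZ at day 14, with summed microglia markers at 4120 CPM (counts scaled by library size) against 648 to 928 CPM in the other 3 mice of its group. Libraries of the EZ kainate group of day 7 lay as far apart. The chi-square per gene between mouse 21 or 35 and mouse 23 or 26 ran from 113.7 to 210.5, and was 23.48 between 21 and 35 and 28.86 between 23 and 26, where mouse 27 gave 158.8 to 170 against the others of its group. The results for the 8 genes at day 14 in the EZ are given with and without it.

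On the GRCm39 assembly, Nlrp3 lies at chr11:59432394-59457782 on the plus strand, Pycard at chr7:127588558-127593039 on the minus strand, Gsdmd at chr15:75733974-75739257 on the plus strand and Casp8 at chr1:58834375-58886665 on the plus strand. Casp1 at chr9:5298508-5307290 and Casp4 at chr9:5308828-5336783 are neighbours on the plus strand with 1537 bases between them. Ripk3 lies at chr14:56022452-56026324 and Mlkl at chr8:112036296-112065168, both on the minus strand. Exons of Pycard share 485 bases with Gm45205, a transcript of unsettled type on the opposite strand that is also in the count table. The authors counted by strand.

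The sequences before the start sites of Pycard, Casp1 and Casp4 are shown because these genes rose on both sides of the brain and because Casp1 and Casp4 sit side by side. Gsdmd and Casp8 also rose on both sides, and their sequences, which held no match to the motifs named below, are not shown. The printed sequences were read from the GRCm39 genome 5′ to 3′ in the direction of the gene, and capitals mark matches to those motifs. The Pycard window is chr7:127593040-127593289, the Casp1 window chr9:5298258-5298507 and the Casp4 window chr9:5308593-5308827, which stops where the annotated gene begins. The Pycard and Casp1 windows overlap opposite-strand transcripts with no coding sequence.
Pycard: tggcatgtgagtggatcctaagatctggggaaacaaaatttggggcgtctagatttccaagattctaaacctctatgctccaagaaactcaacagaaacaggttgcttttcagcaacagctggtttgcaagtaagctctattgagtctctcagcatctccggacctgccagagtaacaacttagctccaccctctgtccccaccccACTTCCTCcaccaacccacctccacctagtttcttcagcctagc
Casp1: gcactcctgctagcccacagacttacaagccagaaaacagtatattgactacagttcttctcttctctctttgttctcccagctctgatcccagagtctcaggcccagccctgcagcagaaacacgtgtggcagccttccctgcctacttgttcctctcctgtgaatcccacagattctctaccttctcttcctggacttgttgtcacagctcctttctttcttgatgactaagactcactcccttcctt
Casp4: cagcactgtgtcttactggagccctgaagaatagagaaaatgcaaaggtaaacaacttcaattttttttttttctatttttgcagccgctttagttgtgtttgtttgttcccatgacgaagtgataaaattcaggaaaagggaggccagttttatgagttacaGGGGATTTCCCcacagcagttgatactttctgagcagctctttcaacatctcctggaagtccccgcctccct

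4 motifs were searched on both strands in the 250 bases before the canonical start site of each gene. These were the interferon-stimulated response element (GAAA, any 2 bases, GAAA), the STAT site TTCNNNGAA, the PU.1 site GAGGAAGT and the NF-κB site by its consensus. The Pycard window held a PU.1 match on the opposite strand from -44 to -37, counted from the base before the start site as -1, and 2.09% of the 21627 windows of protein-coding genes held one. The Casp4 window held 2 overlapping NF-κB matches from -87 to -77, counted from the canonical start, which lies 15 bases past the end of the printed sequence, and 4.21% of windows held one. The Mlkl window held an interferon element at -250 to -241 on the opposite strand, and 3.32% of windows held one. The Mlkl window lies wholly inside Mlkl and in annotated exons, of Mlkl or of another gene. The Nlrp3 window lies wholly inside Nlrp3, and both genes have earlier annotated starts. No match was found before Nlrp3, Casp1, Gsdmd, Casp8 or Ripk3. A match describes the letters and not a bound factor.

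In the EZ all 8 genes were higher after kainate at day 3 and at day 7. A gene was called when its edgeR quasi-likelihood test gave an adjusted p under 0.01 over all genes tested and its fold change was over 1.5. At day 3 the log2 fold changes ran from 1.48 for Gsdmd to 2.82 for Ripk3 with a median of 2.04, where 16.1% of all genes tested were called higher and their median change was 0.03. At day 7 they ran from 2.77 for Ripk3 to 3.58 for Mlkl with a median of 3.19, where 20.6% of all genes were called higher and the median was 0.01. At day 14 in the EZ, 3 of the 8 were called, Pycard, Casp4 and Gsdmd, against 2.32% of all genes. In the PIZ, 5 of the 8 were called at day 3, Pycard, Casp1, Casp4, Gsdmd and Casp8, against 7.12% of all genes.

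**Figure D1:**
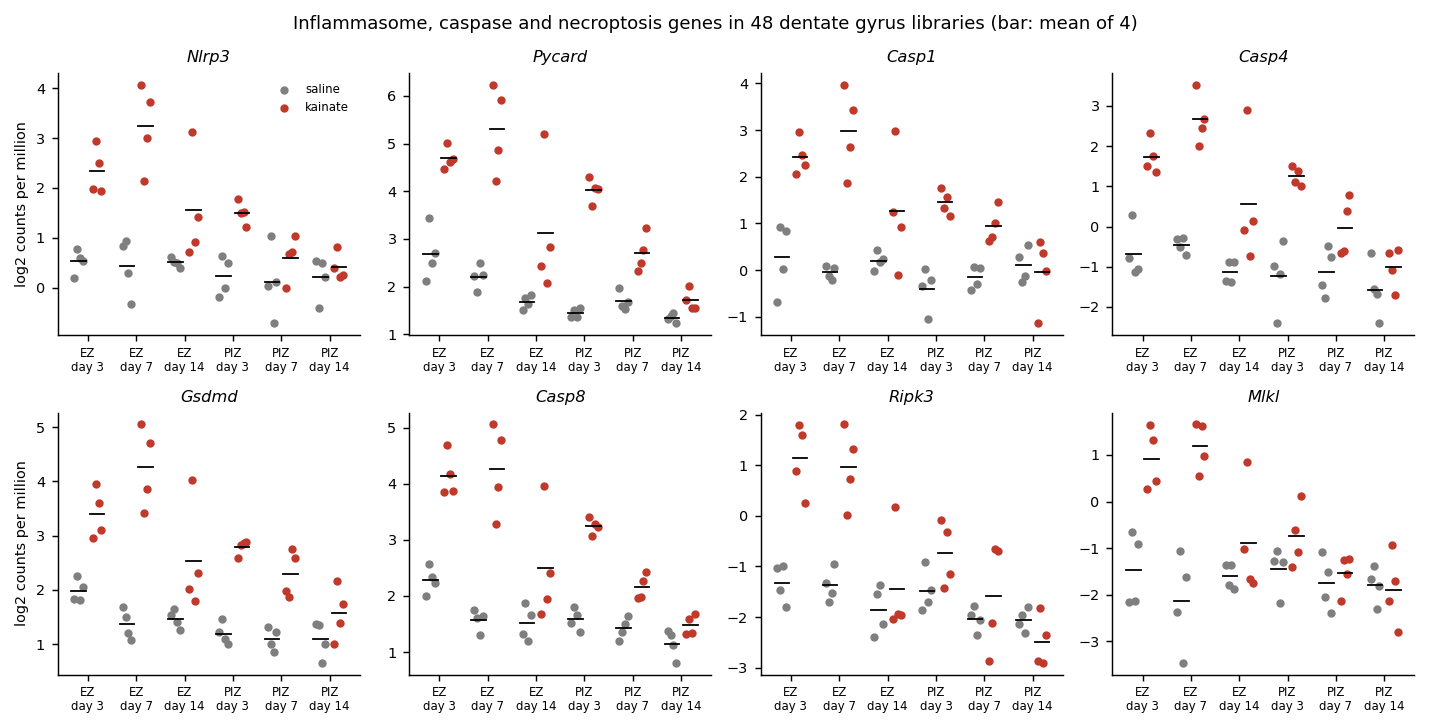
Each point is the log2 CPM of a gene in 1 library, in grey for saline and red for kainate, grouped along the horizontal axis by region and day, and bars are means of 4 libraries. All 4 kainate libraries lie above all 4 saline libraries for each gene in the EZ at day 3 and day 7, and at day 14 in the EZ mouse 27 is the highest kainate library in every panel.

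At day 7 in the PIZ the genes called were 0 of 8 by edgeR, with 5 at an unadjusted p under 0.05, 0 by DESeq2 and 4 by limma-voom with quality weights. Of all genes, edgeR called 0.15% higher and limma-voom 3.84% in either direction. At day 14 in the PIZ they were 0 of 8 by edgeR, DESeq2 and limma-voom alike, with 0 at an unadjusted p under 0.05, against 0.00935% of all genes. In the EZ the kainate libraries lay wholly above the saline libraries for 8 genes at day 3, 8 at day 7 and 4 at day 14, where the share of all genes tested was 23.9%, 23.7% and 4.58%. In the PIZ the same held for 6 genes at day 3, 4 at day 7 and 1 at day 14, against 17.1%, 7.63% and 3.7% of all genes.

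Nlrp3, the sensor, gave 1.06, 1.62, 1.43 and 1.36 CPM in the 4 saline libraries of the EZ at day 3 and 3.83, 7.58, 5.59 and 3.75 CPM in the 4 kainate libraries. Every kainate library was above every saline library, and the log2 fold change was 1.92 ± 0.40 (SE, 4 mice per group; edgeR adjusted p = 0.000179). At day 7 the saline libraries read 1.68, 1.82, 1.14 and 0.706 CPM and the kainate libraries 16.6, 4.33, 7.92 and 13.1 CPM. The groups were again apart, with a log2 fold change of 2.96 ± 0.41 (SE, edgeR adjusted p = 2.21e-07). On the opposite side at day 3 Nlrp3 stood at 0.789 to 1.46 CPM after saline and 2.24 to 3.32 CPM after kainate. These did not overlap, but the log2 difference of 1.30 ± 0.42 (SE) did not pass (edgeR adjusted p = 0.0199), and it passed with only the 8 libraries compared in the fit (adjusted p = 0.00199).

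Pycard, the adaptor, is the bridge between sensor and caspase. In the EZ at day 3 it read 4.24, 10.7, 5.53 and 6.43 CPM after saline and 21.9, 32.2, 24.3 and 25.5 CPM after kainate, a log2 fold change of 1.95 ± 0.40 (SE, edgeR adjusted p = 0.000143). The saline value of 10.7 CPM came from mouse 29, whose summed microglia markers were also the highest of its group at 1100 CPM against 651 to 807 CPM. At day 7 Pycard read 4.59, 3.6, 5.52 and 4.61 CPM after saline and 74.7, 18.5, 28.9 and 60.5 CPM after kainate. The lowest kainate library was thus well above the highest saline library, and the log2 fold change was 3.32 ± 0.42 (SE, edgeR adjusted p = 6.56e-08). In the PIZ at day 3 it read 2.46, 2.77, 2.47 and 2.82 CPM after saline and 19.5, 12.7, 16.6 and 16.3 CPM after kainate. That log2 fold change of 2.63 ± 0.43 (SE, edgeR adjusted p = 2.92e-05) was the largest of the 8 genes in the PIZ at any day.

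Casp1 and Casp4, the inflammatory caspases, lay at low levels after saline. In the EZ at day 7 Casp1 read 0.97, 0.825, 0.774 and 0.942 CPM after saline and 15.5, 3.57, 6.12 and 10.7 CPM after kainate, a log2 fold change of 3.35 ± 0.45 (SE, edgeR adjusted p = 1.5e-07). Casp4 there read 0.715, 0.608, 0.722 and 0.518 CPM after saline and 11.4, 3.93, 5.42 and 6.35 CPM after kainate, a log2 fold change of 3.40 ± 0.54 (SE, edgeR adjusted p = 2.42e-06). For both genes mouse 21 was the highest and mouse 23 the lowest kainate library. At day 3 in the EZ the log2 fold changes were 2.14 ± 0.43 for Casp1 and 2.49 ± 0.54 for Casp4 (SE, edgeR adjusted p = 0.000115 and 0.000275).

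In the PIZ at day 3 Casp1 read 0.696, 0.923, 0.39 and 0.775 CPM after saline and 3.28, 2.42, 2.86 and 2.16 CPM after kainate. Casp4 read 0.418, 0.0972, 0.347 and 0.683 CPM after saline, which is 2 to 15 counts, and 2.74, 2.06, 2.53 and 1.92 CPM after kainate. Neither gene's groups overlapped, and the log2 fold changes were 1.94 ± 0.46 for Casp1 and 2.55 ± 0.58 for Casp4 (SE, edgeR adjusted p = 0.00223 and 0.00134). The call of Casp1 was lost without saline mouse 37, which held its lowest value (log2 fold change 1.74, edgeR adjusted p = 0.0142). It was also lost in a limma-voom fit with the mouse as a random block, at a log2 fold change of 1.965 (limma adjusted p = 0.0123). That fit changed both the tool and the block.

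Gsdmd, the pore-forming effector of pyroptosis, had the smallest change of the 8 in the EZ at day 3. It read 3.44, 4.68, 3.41 and 4.04 CPM after saline and 7.69, 15.3, 12 and 8.46 CPM after kainate, a log2 fold change of 1.48 ± 0.34 (SE, edgeR adjusted p = 0.000415). At day 7 the saline libraries read 3.11, 2.74, 2.22 and 2.02 CPM and the kainate libraries 33, 10.6, 14.5 and 25.9 CPM. This log2 fold change of 3.06 ± 0.35 (SE, edgeR adjusted p = 2.83e-08) ranked the gene 100 of 21390 by p. Gsdmd in the PIZ at day 3 read 2.23, 2.67, 2.04 and 1.91 CPM after saline and 5.94, 7.03, 7.2 and 7.23 CPM after kainate, a log2 fold change of 1.63 ± 0.35 (SE, edgeR adjusted p = 0.000777). It was also the member nearest to the threshold in the PIZ at day 7, at 1.71 to 2.41 CPM after saline and 3.55 to 6.69 CPM after kainate. Those groups did not overlap, yet the log2 difference of 1.28 ± 0.36 (SE) did not pass (edgeR adjusted p = 0.0568).

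Casp8, the caspase of death receptors, had the smallest standard error of the 8 genes in each comparison of kainate with saline. In the EZ at day 3 it read 3.93, 5.85, 4.93 and 4.58 CPM after saline and 14.3, 25.6, 17.9 and 14.4 CPM after kainate, a log2 fold change of 1.90 ± 0.31 (SE, edgeR adjusted p = 7.17e-06). At day 7 it read 3.27, 2.95, 2.37 and 3.01 CPM after saline and 33.2, 9.69, 15.2 and 27.5 CPM after kainate. The groups were far apart, and the log2 fold change of 2.88 ± 0.33 (SE, edgeR adjusted p = 2.39e-08) ranked the gene 67 of 21390 by p, the best rank of the 8. Casp8 in the PIZ at day 3 stood at 2.46 to 3.4 CPM after saline and 8.32 to 10.5 CPM after kainate, a log2 fold change of 1.69 ± 0.32 (SE, edgeR adjusted p = 0.000204).

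Ripk3 and Mlkl, the kinase and the executioner of necroptosis, had the fewest reads. Ripk3 read 0.397, 0.27, 0.415 and 0.195 CPM in the saline EZ at day 3, which is 4 to 9 counts, and 1.76, 3.41, 2.94 and 1.09 CPM after kainate. Its log2 fold change there, 2.82 ± 0.50 (SE, edgeR adjusted p = 1.84e-05), was the largest of the 8 genes at day 3. Ripk3 was also the only member whose highest group mean was in the EZ at day 3, at 2.30 CPM, and the other 7 had theirs in the EZ at day 7. At day 7 it read 0.306, 0.217, 0.258 and 0.424 CPM after saline and 3.41, 0.918, 1.56 and 2.41 CPM after kainate, a log2 fold change of 2.77 ± 0.51 (SE, edgeR adjusted p = 1.7e-05).

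Mlkl read 0.132, 0.54, 0.138 and 0.438 CPM in the saline EZ at day 3 and 1.11, 3.02, 2.39 and 1.26 CPM after kainate, a log2 fold change of 2.63 ± 0.54 (SE, edgeR adjusted p = 0.000147). At day 7 the saline libraries read 0.102, 0.391, 0 and 0.235 CPM and the kainate libraries 3.06, 1.38, 2.96 and 1.87 CPM. The library of mouse 34 held 0 counts, which allows up to 0.155 CPM at 3 counts, and all kainate libraries were higher than that. The log2 fold change was 3.58 ± 0.58 (SE, edgeR adjusted p = 3.14e-06), the largest of the 8 genes at day 7. In the PIZ at day 3 neither necroptosis gene passed. Ripk3 stood at 0.186 to 0.437 CPM after saline and 0.283 to 0.86 CPM after kainate, a log2 difference of 0.98 ± 0.55 (SE, edgeR adjusted p = 0.197). Mlkl stood at 0.13 to 0.389 CPM and 0.287 to 0.999 CPM, a log2 difference of 0.95 ± 0.59 (SE, edgeR adjusted p = 0.251), and for both genes the groups overlapped.

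**Figure D2:**
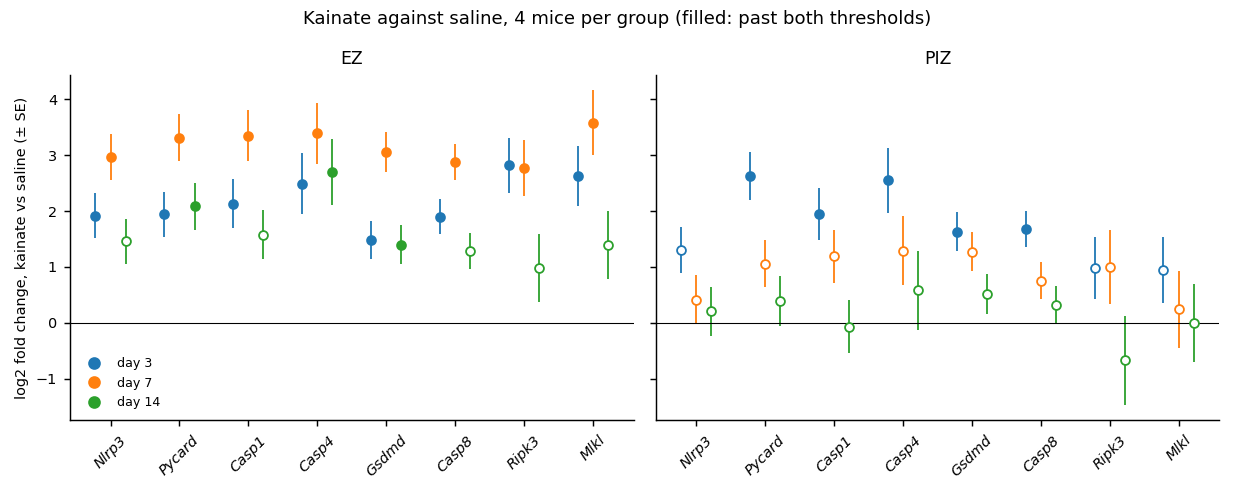
The vertical axis is the log2 fold change of kainate against saline with its standard error, for each gene in the EZ (left) and the PIZ (right) at day 3, day 7 and day 14. Filled points passed both thresholds, which all 8 genes did in the EZ at day 3 and day 7 and none did in the PIZ at day 7 and day 14.

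At day 14 in the EZ the calls of Pycard, Casp4 and Gsdmd were lost without any 1 saline mouse of that day, and also without kainate mouse 27. Pycard read 36.5 CPM in that mouse and 5.29, 4.1 and 7.06 CPM in the others, against 2.77 to 3.44 CPM after saline. Casp4 read 7.43 CPM in that mouse and 0.857, 0.506 and 1.0 CPM in the others, against 0.295 to 0.452 CPM after saline. Gsdmd read 16.1 CPM in that mouse and 3.93, 3.37 and 4.85 CPM in the others, against 2.31 to 3.05 CPM after saline. The other 3 mice were thus above every saline library for these 3 genes, by smaller amounts.

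The log2 fold changes at day 14 with all 4 mice were 2.09 ± 0.42 for Pycard, 2.71 ± 0.59 for Casp4 and 1.40 ± 0.35 for Gsdmd (SE, edgeR adjusted p = 0.00199, 0.00371 and 0.00966). Without mouse 27 they were 0.82, 1.08 and 0.60, the genes called by edgeR were 0 of 8, and 7 genes of all tested were called where 504 had been. In a limma-voom fit with the mouse as a random block the folds were also lower, from 1.11 to 1.87 (limma adjusted p from 0.19 to 0.212). They were lower too with limma-voom and quality weights and no block, from 0.57 to 1.03. The random block was not fitted apart from the change of tool. The calls were lost at nearly the same folds in an edgeR fit to the 8 libraries compared (2.10, 2.72 and 1.41, adjusted p = 0.56), against a tested fold of 1.5, and without any 1 of the saline mice 24, 28, 31 and 39. Without 1 of those saline mice the log2 fold changes ran from 2.03 to 2.13 for Pycard, 2.61 to 2.81 for Casp4 and 1.34 to 1.47 for Gsdmd. Over all genes 30 to 137 were called in those fits, and 793 to 893 without kainate mouse 40, 14 or 36. The other members did not pass at day 14 in the model as reported. Casp8 came nearest, at 1.29 ± 0.32 (SE, edgeR adjusted p = 0.0106, DESeq2 adjusted p = 0.00233), and it passed in edgeR with RLE size factors (adjusted p = 0.00953) and without the filter (adjusted p = 0.00948). It was followed by Nlrp3 at 1.46 ± 0.41 (adjusted p = 0.0261) and Casp1 at 1.58 ± 0.44 (adjusted p = 0.0267). Ripk3 read 1.04 CPM in mouse 27 and 0.151, 0.169 and 0.167 CPM in the others, which lay inside the saline range of 0.0989 to 0.295 CPM. Mlkl read 1.72 CPM in mouse 27 and 0.209 to 0.403 CPM in the others, against 0.181 to 0.297 CPM after saline. With all 4 mice the log2 differences were 0.98 ± 0.62 for Ripk3 and 1.40 ± 0.61 for Mlkl (SE, edgeR adjusted p = 0.415 and 0.205). Without mouse 27 these 2 were -0.25 and 0.19. Without mouse 27 the log2 differences were 0.52 for Casp8, 0.58 for Nlrp3 and 0.63 for Casp1 (edgeR adjusted p = 1.0 for each), and the median of the 8 genes went from 1.43 to 0.59. For all 8 genes the value of mouse 27 lay within the range of the EZ kainate libraries of day 7. On the opposite side of the same mouse Pycard read 3.97 CPM against 2.82 to 3.22 CPM in the other 3 mice.

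Whether kainate acted more strongly on the injected side was tested as the difference of the log2 fold changes, EZ minus PIZ. At day 7, 5 of the 8 genes passed, where 9.89% of all genes were called in either direction. The differences were 2.55 ± 0.59 for Nlrp3, 2.26 ± 0.58 for Pycard, 1.78 ± 0.49 for Gsdmd, 2.13 ± 0.46 for Casp8 and 3.34 ± 0.94 for Mlkl (SE, edgeR adjusted p from 0.0023 to 0.00959). The 3 that did not pass had differences of 2.16 ± 0.65 for Casp1 (adjusted p = 0.014), 2.10 ± 0.84 for Casp4 (adjusted p = 0.0577) and 1.77 ± 0.88 for Ripk3 (adjusted p = 0.128). The EZ was above the PIZ in each of the 4 kainate mice for 8 genes at day 3, 8 at day 7 and 7 at day 14, where the share of all genes was 25.8%, 28.2% and 11.8%. In each of the 4 saline mice the same held for 4, 3 and 3 of the 8 genes, against 13.2%, 8.5% and 9.9% of all genes. The log2 CPM difference between sides of Pycard, for example, averaged 2.60 ± 0.96 after kainate and 0.51 ± 0.32 after saline (SD, n = 4 mice each).

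The number of members called at day 7 was 5 by DESeq2, which called 13.6% of all genes, and 6 by limma-voom, which called 24%. DESeq2 called Casp1 (adjusted p = 0.00556) and not Mlkl, to which it gave no adjusted p. The number of members called in edgeR moved when single mice were left out. It fell from 5 to 0 without kainate mouse 21, kainate mouse 35 or saline mouse 89, to 1 without saline mouse 33 or 20 and to 2 without saline mouse 34. Over all genes the calls fell from 2115 to 1, 188 and 221 without mouse 21, 35 and 89, and to 799, 149 and 654 without mouse 33, 20 and 34. They rose to 3752 and 3119 without kainate mouse 23 and 26. The differences of the 5 genes were about as large without mouse 35, at 2.60 for Nlrp3, 2.31 for Pycard, 1.76 for Gsdmd, 2.09 for Casp8 and 3.58 for Mlkl. Without mouse 21 they were 2.06, 1.80, 1.37, 1.77 and 2.97. Mouse 21 held the highest value of each of the 8 genes in the EZ and the lowest value of 7 of them in the PIZ. Its Pycard reading was 74.7 CPM on the injected side and 4.89 CPM on the other.

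At day 3 the differences between sides ran from -0.68 for Pycard to 1.84 for Ripk3. The genes called were 0 of 8 by edgeR, with 2 at an unadjusted p under 0.05, 0 by DESeq2 and 1 by limma-voom, where edgeR called 0.0655% and limma-voom 8.78% of all genes. The 2 were the necroptosis genes, Ripk3 with a difference of 1.84 ± 0.76 and Mlkl with 1.68 ± 0.82 (SE, edgeR adjusted p = 0.199 and 0.274). In the kainate mice of day 3 the log2 CPM of Ripk3 was on average 1.87 ± 0.98 higher in the EZ than in the PIZ, and that of Pycard 0.67 ± 0.48 higher (SD, n = 4). After saline the same side difference of Pycard at day 3 was 1.24 ± 0.48 (SD, n = 4). At day 14 the differences ran from 0.88 to 2.12, and the genes called were 0 of 8 by edgeR, DESeq2 and limma-voom, with 5 at an unadjusted p under 0.05, against 0.0% of all genes by edgeR. Without mouse 27 the differences at day 14 ran from 0.23 to 0.98.

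**Figure D3:**
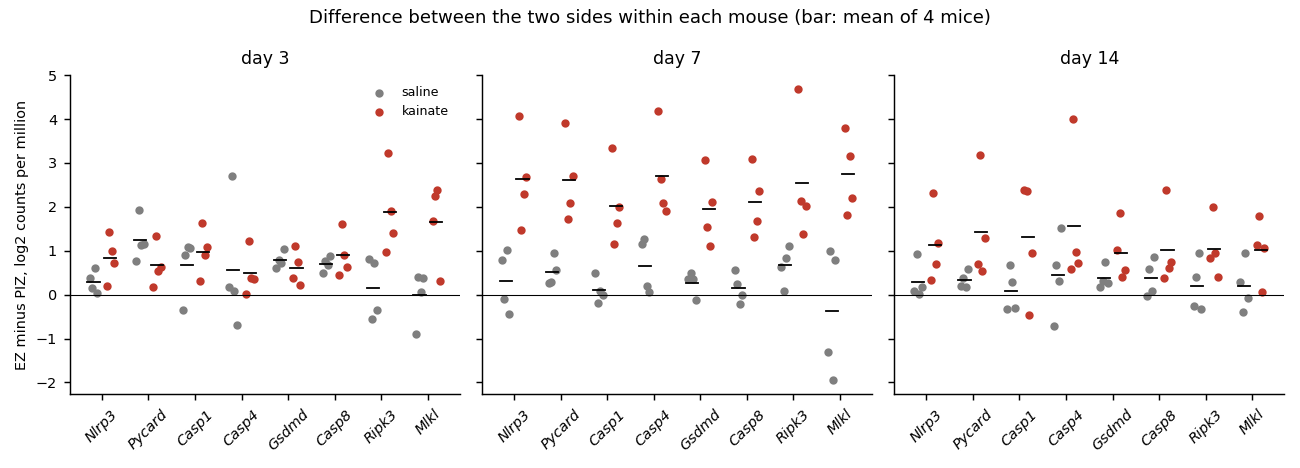
Each point is the log2 CPM in the EZ minus that in the PIZ of the same mouse, in grey for saline and red for kainate mice, and bars are means of 4 mice. All kainate mice lie above 0 for each gene at day 3 and at day 7, where their means are highest, and at day 3 the kainate means of Ripk3 and Mlkl are the highest.

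The change of the kainate effect with time was tested as the difference between days, which are different mice. From day 3 to day 7 in the EZ the differences ran from -0.05 for Ripk3 to 1.57 for Gsdmd. The genes called were 0 of 8 by edgeR, with 3 at an unadjusted p under 0.05, 0 by DESeq2 and 3 by limma-voom, where edgeR called 0.145% and limma-voom 5.73% of all genes, and the lowest adjusted p was 0.118. From day 7 to day 14 in the EZ all 8 differences were negative, from -0.69 for Casp4 to -2.18 for Mlkl. The genes called were 0 of 8 by edgeR, with 7 at an unadjusted p under 0.05, 1 by DESeq2 (Casp8) and 8 by limma-voom. Over all genes tested edgeR called 0.271%, DESeq2 4.2% and limma-voom 29.5%. Without mouse 27 all 8 passed, with differences from -2.31 for Casp4 to -3.39 for Mlkl, in a fit that called 4087 of 21688 genes. Without kainate mouse 23 of day 7, the lowest library of its group, Gsdmd and Casp8 passed, at -1.87 and -1.83. The share of all genes called in that last fit is not given here. From day 3 to day 7 in the PIZ the differences ran from -1.57 for Pycard to 0.02 for Ripk3, and the genes called were 0 of 8 by edgeR, DESeq2 and limma-voom, with 2 at an unadjusted p under 0.05, against 0.0234% of all genes.

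After saline no member passed between the sides. The genes called between saline EZ and saline PIZ were 0 of 8 at each day by edgeR and DESeq2, against 0.0281%, 0.0% and 0.0% of all genes at day 3, day 7 and day 14. At an unadjusted p under 0.05 there were 3 at day 3 and 0 at day 7 and day 14. Pycard had the widest log2 difference at day 3, 1.35 ± 0.43 (SE, edgeR adjusted p = 0.424), and was higher in the EZ in 4 of 4 saline mice at each day. At day 3 all 8 log2 differences were above 0, with a median of 0.66 against -0.01 over all genes, and those of the 10 microglia markers ran from 0.61 to 1.34 with a median of 0.82. Within the saline mice of day 3 Gsdmd was higher in the EZ by 0.79 ± 0.19 and Casp8 by 0.70 ± 0.17 on the log2 CPM scale, in 4 of 4 mice each (SD). With the mouse as a fixed block the members called at day 3 were still 0, the lowest edgeR adjusted p being 0.23 for Pycard.

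Between genes, levels were compared as counts scaled to library size and to the length of merged exons (RPKM). In the saline EZ at day 7 Pycard stood at 1.08 ± 0.185, Casp8 at 0.942 ± 0.122 and Gsdmd at 0.84 ± 0.165 RPKM (SD, n = 4), with ranges that overlapped. Nlrp3 at 0.33 ± 0.127 and Casp1 at 0.28 ± 0.0297 RPKM formed a lower pair, followed by Casp4 at 0.122 ± 0.0185 and Ripk3 at 0.119 ± 0.0353 RPKM, and by Mlkl at 0.0314 ± 0.0292 RPKM. The 4 libraries overlapped within each of these sets and not between one set and the next. In the kainate EZ at day 7 the order was Pycard at 10.8 ± 6.23, Gsdmd at 6.99 ± 3.44, Casp8 at 6.94 ± 3.51, Casp1 at 2.87 ± 1.68, Nlrp3 at 2.58 ± 1.34, Casp4 at 1.29 ± 0.615, Ripk3 at 0.819 ± 0.426 and Mlkl at 0.4 ± 0.143 RPKM (SD, n = 4). There each gene's range overlapped that of the next.

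In the comparisons of kainate with saline the medians of microglia markers moved with those of these genes. In bulk tissue, more cells of a type and more RNA per cell cannot be told apart. Of 10 microglia markers, among them P2ry12, Tmem119, Cx3cr1, Csf1r and Aif1, 7 were called higher in the EZ at day 3, 10 at day 7 and 6 at day 14, and 10 in the PIZ at day 3, with 0 by edgeR in the PIZ at day 7 and day 14, where 4 and 0 had an unadjusted p under 0.05. Without mouse 27 the 6 calls at day 14 became 0 by edgeR, with 3 at an unadjusted p under 0.05, and the median became 0.44. Their median log2 fold changes in these comparisons were 1.29, 2.66, 1.28 and 1.47, then 0.68 and 0.11, beside medians of the 8 genes of 2.04, 3.19, 1.43 and 1.66, then 1.03 and 0.26. At day 3 in the EZ 2 homeostatic microglia genes, P2ry12 and Siglech, had log2 differences of -0.26 ± 0.22 and -0.31 ± 0.28 (SE, edgeR adjusted p = 0.344 and 0.366), while all 8 genes were higher. For the difference between the sides at day 7, 9 of the 10 markers were called, with a median of 2.07 beside 2.14 for the 8 genes. At day 3 the difference between the sides went apart, with a median of -0.625 for the markers and 0.205 for the 8 genes. For the change from day 3 to day 7 in the EZ, 2 of the 10 were called and their median of 1.69 was above that of the 8 genes, 1.01. The summed level of the 10 markers ran from 557 to 613 CPM in the saline EZ at day 7 and from 2180 to 7650 CPM after kainate. Mouse 23 was the lowest and mouse 21 the highest there, as for all 8 genes. The part of microglia in the changes of the 8 genes was not tested.

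**Figure D4:**
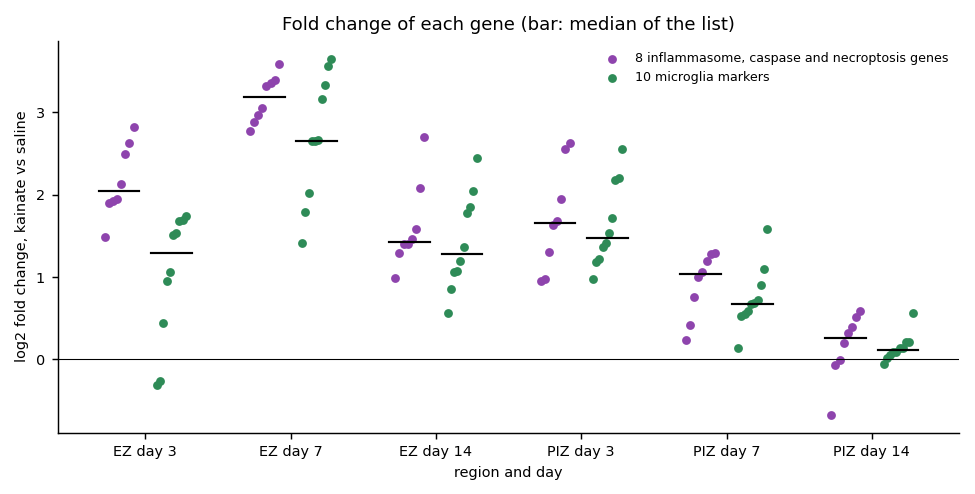
Each point is the log2 fold change of 1 gene, kainate against saline, in purple for the 8 genes and green for 10 microglia markers, and bars are medians. In each of these comparisons of kainate with saline the median of the 8 genes is the higher of the pair, from 2.04 against 1.29 in the EZ at day 3 to 0.26 against 0.11 in the PIZ at day 14.

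Markers of other cell types moved as well. Of 8 blood leukocyte markers tested of 10 listed, 5 were called higher in the EZ at day 3 and at day 7 and 1 at day 14, and 1 in the PIZ at day 3. Their summed level was 15.4 to 28.4 CPM after saline and 47.5 to 123 CPM after kainate in the EZ at day 3, and 11.3 to 17.5 CPM and 35.3 to 46.8 CPM in the PIZ. Ccr2, a monocyte chemokine receptor, rose in the EZ at day 3 from 0.79 ± 0.473 to 11.2 ± 7.16 CPM, the integrin gene Itgal from 0.489 ± 0.265 to 5.23 ± 3.28 CPM and Plac8 from 0.117 ± 0.129 to 1.86 ± 1.08 CPM (SD, n = 4). Ptprc, the pan-leukocyte gene that microglia also express, had a highest value of 108 CPM, while the T cell gene Cd3e and the B cell gene Cd79a stayed at or under 0.544 and 0.55 CPM. In the PIZ at day 3 most of the rise of the sum was Ptprc, from 3.98 ± 0.521 to 27.3 ± 3.86 CPM. Ccr2 went there from 0.403 ± 0.235 to 1.36 ± 0.367 CPM, Itgal from 0.384 ± 0.239 to 0.601 ± 0.193 CPM and Ly6c2 from 9.51 ± 1.69 to 8.78 ± 2.21 CPM (SD, n = 4). Of 6 astrocyte markers 3 were called higher and 1 lower in the EZ at day 3 and 4 higher at day 7, with 3 higher in the PIZ at day 3. At day 14 in the EZ 2 were called higher, and without mouse 27 these were 0 by edgeR, with 2 at an unadjusted p under 0.05. Of 6 granule cell markers 3 were called lower in the EZ at day 3 and at day 7 and 2 in the PIZ at day 3. Of 5 endothelial markers 2 were called higher in the EZ at day 3 and at day 7. The summed choroid plexus markers stayed at or under 3.48 CPM. In mouse 27 at day 14 the summed astrocyte markers read 11400 CPM against 5290 to 5990 CPM in the other 3 mice, leukocyte markers 94.4 against 17.4 to 26.3 CPM, endothelial markers 235 against 148 to 160 CPM and granule cell markers 362 against 491 to 905 CPM. Without mouse 27 the leukocyte markers called at day 14 were 0 by edgeR, with 1 at an unadjusted p under 0.05. The part of these cell types was not tested either.

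Other genes of the inflammasome and of pyroptosis were called higher and not lower. Of 23 such genes 15 were called higher and 0 lower in the EZ at day 3 (median log2 fold change 1.57), 19 and 0 at day 7 (2.69), 5 and 0 at day 14 and 9 and 0 in the PIZ at day 3 (0.95). Il1b, the substrate of Casp1, was at 0.131 ± 0.0385 CPM in the saline EZ at day 7 and 1.88 ± 0.398 CPM after kainate (SD, n = 4), a log2 fold change of 3.78 ± 0.74 (SE, edgeR adjusted p = 4.5e-05). Il18, the other cytokine substrate, was at 14.2 ± 0.546 and 19 ± 2.22 CPM (SD, n = 4), a log2 difference of 0.42 ± 0.10 (SE, edgeR adjusted p = 0.000775) that was under the fold threshold. Aim2, a DNA sensor, rose by 1.73 ± 0.26 and Nlrc4, a sensor of bacterial proteins, by 2.71 ± 0.74 at day 7 on the log2 scale (SE, edgeR adjusted p = 7.54e-07 and 0.00206). Casp12, a relative of the inflammatory caspases, rose by 2.49 ± 0.50 (adjusted p = 5.68e-05). Nek7, the kinase that licenses Nlrp3, was among the 2 most abundant genes of the list and rose by 0.75 ± 0.14 (adjusted p = 2.2e-05). Brcc3, the deubiquitinase of Nlrp3 and the other of the 2, had a log2 difference of -0.46 ± 0.09 (adjusted p = 4.88e-05), under the fold threshold. Gsdme, another gasdermin, had a log2 difference of -0.21 ± 0.13 (adjusted p = 0.173).

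Around Casp8, 16 of 17 death receptor and extrinsic apoptosis genes were tested, of which 11 were called higher and 1 lower in the EZ at day 3 (median 0.89), 12 and 1 at day 7 (1.33), 1 and 0 at day 14 and 5 and 0 in the PIZ at day 3 (0.70). Lower calls covered 8.61% of all genes in the EZ at day 3 and 11.9% at day 7. At day 7 the adaptor Fadd rose by 1.48 ± 0.27 and the Casp8 inhibitor Cflar by 1.28 ± 0.18 on the log2 scale (SE, edgeR adjusted p = 1.53e-05 and 3.6e-07). The deubiquitinase Cyld, the most abundant gene of this list, was the one called lower, and it fell by 0.93 ± 0.13 (adjusted p = 2.76e-07). Xiap, an inhibitor of caspases, had a log2 difference of -0.18 ± 0.07 (adjusted p = 0.0197).

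Of 7 further necroptosis genes 5 were called higher in the EZ at day 3 and at day 7 (median 1.53 at day 7), 1 at day 14 and 2 in the PIZ at day 3, with 0 lower in each. Zbp1, a nucleic acid sensor that binds Ripk3, was at 0.404 ± 0.382 CPM in the saline EZ at day 7 and 22.2 ± 10.6 CPM after kainate (SD, n = 4), a log2 fold change of 5.78 ± 0.80 (SE, edgeR adjusted p = 2.36e-07). In the PIZ at day 3, where neither Ripk3 nor Mlkl passed, Zbp1 went from 0.14 ± 0.0861 to 3.22 ± 1.29 CPM (SD, n = 4), a log2 fold change of 4.48 ± 0.93 (SE, edgeR adjusted p = 0.000527). Ripk1, the kinase upstream of Ripk3, rose by 1.87 ± 0.24 in the EZ at day 7 (adjusted p = 6.56e-08). The abundant genes Map3k7 and Pgam5 had log2 differences of 0.08 ± 0.05 and -0.15 ± 0.10 there (adjusted p = 0.134 and 0.167). Of 13 genes of mitochondrial apoptosis 5 were called higher and 1 lower in the EZ at day 3, 6 and 1 at day 7 (median 0.39), and 0 in the EZ at day 14 and in the PIZ at day 3 by edgeR, where 7 and 8 had an unadjusted p under 0.05. The gene called lower at day 7 was Bcl2l2, an inhibitor of apoptosis, which fell by 0.60 ± 0.08 (adjusted p = 8.33e-08), and its relative Bcl2l1 had a log2 difference of -0.13 ± 0.08 (adjusted p = 0.173).

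Without mouse 27 the calls at day 14 were 0 by edgeR in each of the 3 lists that had any, with 5 inflammasome and pyroptosis genes, 0 death receptor genes and 2 necroptosis genes at an unadjusted p under 0.05.

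The 8 genes were correlated with each other over the 12 group means of log2 CPM. The correlation between members ran from 0.879 for Gsdmd and Ripk3 to 0.988 for Pycard and Casp4, and Ripk3 had the lowest correlation with the mean profile of the 8, at 0.944, where the others had 0.965 to 0.989. The 5 genes outside the set with the highest Pearson correlation to the mean profile were Wdfy4 at 0.9982, Itgb5 at 0.9975, Cflar at 0.9972, Eml3 at 0.9972 and Lrrc25 at 0.997. These 5 genes were nearer to the mean profile than any member, although the profile was built from the members themselves. The share of all genes with correlations as high was not computed, so the values do not set the 8 genes apart. These are descriptions over 12 points that share libraries and mice.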

How the data were processed

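RNA was sequenced from 48 libraries of 24 mice, and raw counts per gene were deposited by the authors. Per the labels and the methods of the study, reads from stranded mRNA libraries were trimmed with fastp 0.20.1, aligned with HISAT2 2.2.1 to GRCm39 and counted with featureCounts (Subread 1.6.4) on Gencode M28, with the primary alignment of multimapping reads counted. Reads that near-identical genes share could therefore be assigned to either.

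Counts were tested in R 4.3.3 with edgeR 4.0.16 (TMM factors, filterByExpr, quasi-likelihood F test) in 1 model of 12 group means over 48 libraries. A gene was called at a Benjamini-Hochberg adjusted p under 0.01 over 21390 genes with a fold change over 1.5. Standard errors are the log2 fold change divided by the square root of F. CPM used the TMM library sizes, with a prior count of 2 on the log2 scale, and RPKM used merged exon lengths of Gencode M39, a later release than the counting used. Differences between sides and between days were contrasts of that model. The motif search used consensus letters on both strands. The script was tested on simulated data.

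The members, marker lists and partner lists were chosen with earlier results of these data known. Every member is named, and so are the 2 most abundant genes of each partner list, the partner genes fixed as acting directly with a member, of which 1 is not reported here, and the 5 genes with the highest correlation to the mean profile of the members. Results were recomputed with DESeq2 1.42.0, with limma 3.58.1 (voom and sample quality weights), a fit to the libraries compared, RLE size factors, no filter, at least 10 counts in every library, a test against a fold of 1.5, the mouse as a block and leaving out each mouse. The same mouse number in the titles marks both sides of 1 animal, which pairs EZ with PIZ, and the residuals of the 2 libraries of a mouse correlated by -0.0536 to 0.376 with a median of 0.208. Kainate and saline mice are different animals. No 2 libraries of a group agreed within counting noise, the lowest chi-square per gene being 4.163. The limit at 0 counts covers counting error only.

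Positions and sequences came from the GRCm39 genome with Gencode M39, in which 98.9% of the gene identifiers matched.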

Additional observations from a re-analysis of the deposited data

Results flagged for a closer look

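In 96 groups of 4 libraries, 1 per gene and group, the highest or lowest library was compared with the others on the log2 CPM scale. In 2 groups its gap to the nearest library passed Dixon's critical value for 4 samples as a share of the whole range, which chance alone does in about 1 group in 20. These were Ripk3 in the EZ after kainate at day 14, where mouse 27 was the highest library with a gap of 0.955 of the range, and Gsdmd in the PIZ after kainate at day 3, where mouse 30 was the lowest with a gap of 0.856 of the range.

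The kainate effect differed between the sides at day 7 for 5 genes, by an EZ minus PIZ log2 difference of 2.55 for Nlrp3, 2.26 for Pycard, 1.78 for Gsdmd, 2.13 for Casp8 and 3.34 for Mlkl in edgeR. Of all genes tested 9.89% were called in this comparison, and the members called ran from 0 to 6 when single mice were left out, with 0 without mouse 21, 35 or 89. In the same comparison 9 of 10 microglia markers were called, with a median of 2.07 beside 2.14 for the 8 genes, and their part in it was not tested.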

How the results depend on the processing

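The 8 calls in the EZ at day 3 and at day 7 held without any single mouse. The number of members called moved under other settings. With at least 10 counts in every library, which leaves 4 members to test, it was 4, 4 and 1 in the EZ at day 3, day 7 and day 14 and 3 in the PIZ at day 3. With limma-voom and quality weights it was 0 in the EZ at day 14, 4 in the PIZ at day 7, 6 in the PIZ at day 3 (13% of all genes, where edgeR called 8.69% in either direction), 1 for EZ minus PIZ at day 3, 6 at day 7, 3 from day 3 to day 7 and 8 from day 7 to day 14 in the EZ. In limma-voom with the mouse as a random block it was 0 in the EZ at day 14, as it was in limma-voom without the block. In edgeR with the mouse as a fixed block it was 5 for EZ minus PIZ at day 7. With only the libraries compared it was 0 in the EZ at day 14, 2 for EZ minus PIZ at day 7 and, in the PIZ, 1 from day 3 to day 7. Against a tested fold of 1.5 it was 7 in the EZ at day 3 (Gsdmd lost), 0 in the EZ at day 14 and 3 in the PIZ at day 3, without the filter 3 for EZ minus PIZ at day 7, and with RLE size factors or without the filter 4 in the EZ at day 14. With DESeq2 it was 4 in the EZ at day 14 (3.49% of all genes) and 1 from day 7 to day 14 there. Leaving out 1 mouse gave 0 to 6 in the EZ at day 14, where 7 to 893 of all genes were called, and 4 to 5 in the PIZ at day 3. It gave 0 to 6 for EZ minus PIZ at day 7, where 1 to 3752 of all genes were called, and 0 to 8 from day 7 to day 14. The share of all genes called is given here only for DESeq2, limma-voom with quality weights and some fits without 1 mouse. Under the other settings a change in the members cannot be told from a change in all genes. Except where named, the cause was not tested.

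Of 1704 fold changes under the alternatives, 39 had the opposite sign, 0 of them where either fit called the gene. Leaving out 1 mouse, the log2 values ran from -0.25 to 1.25 for Ripk3 in the EZ at day 14 (-0.13 with limma-voom), -0.0065 to 0.61 for Mlkl in the PIZ at day 7, and -0.31 to 0.21 for Casp1 and -0.59 to 0.28 for Mlkl in the PIZ at day 14. For EZ minus PIZ at day 3 they ran from -0.065 to 0.42 for Casp1, -0.63 to 0.75 for Casp4 and -0.049 to 0.37 for Casp8. For Ripk3 from day 3 to day 7 they ran from -0.39 to 0.20 in the EZ and -0.39 to 0.38 in the PIZ. Between saline sides they ran from -0.21 to 1.17 for Casp4, -0.058 to 0.57 for Ripk3 and -0.13 to 0.42 for Mlkl at day 3, -0.046 to 0.20 for Casp1 and -1.04 to 0.35 for Mlkl at day 7, and -0.15 to 0.23 for Casp1, -0.042 to 0.60 for Ripk3 and -0.089 to 0.50 for Mlkl at day 14. The effect of depth on these was not tested. Mlkl held 0 to 9 counts in the saline EZ at day 7.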
